A study of Mus musculus with 30 samples.

Results

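The change in the mutant effect on lung RNA between stages E13.5 and E18.5 (embryonic days) was measured in 20 of the series' 30 libraries, all those made from lung. For each gene, the log2 fold change of mutants over controls at E13.5 was subtracted from that at E18.5, and the result is called the stage difference below. A positive stage difference means that the mutant effect was more positive, or less negative, at E18.5. An early change is said to fade where it passed the test at E13.5 and the stage difference passed with the opposite sign. A change is said to appear late where it passed at E18.5 and the stage difference passed with the same sign. Of 53715 annotated genes, 18639 had enough counts to be tested. To ask which aspects of lung and tracheal growth need differentiated airway smooth muscle, the study removed Myocd from the mesenchyme of the developing mouse airway and measured RNA by sequencing, with each library made from 1 lung. The E18.5 mutants (6 libraries) and the E13.5 mutants (5 libraries) were labelled Tbx4rtTAi/+; tetOcrei/+; MyocdF/F, so both of their Myocd alleles were floxed. The E18.5 controls (4 libraries) and 4 of the 5 E13.5 controls were labelled Tbx4rtTAi/+; tetOcrei/+; MyocdF/+, so they carried the same transgenes and 1 floxed allele. Replicate 1 of the E13.5 controls was labelled MyocdF/F, without the transgenes. Right lobes were taken at E18.5, and right and left lobes at E13.5. Cre was under a doxycycline-responsive promoter, with its transactivator driven by Tbx4, a gene of lung and tracheal mesenchyme; the days of doxycycline are not given in the sources used here.

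Myocardin, the product of Myocd, is a coactivator that binds serum response factor (SRF). SRF binds a DNA element called the CArG box, found near genes of the contractile apparatus such as smooth muscle actin, smooth muscle myosin and calponin, and myocardin raises their transcription in differentiating smooth muscle. Airway smooth muscle wraps the epithelial tubes of the lung while they branch. By late gestation the airway epithelium has gained ciliated and secretory cells, and the distal lung has formed the precursors of the alveolar epithelium. ATF4, which appears below, is a transcription factor of the integrated stress response; its targets include genes of serine and asparagine synthesis, mitochondrial folate metabolism and tRNA charging.

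Library totals ran from 17.4 to 32.8 M counts. The first principal component, 79.1% of the variance, separated the stages, and stage cannot be told apart from the lobes taken or from anything else that differed between the E18.5 and E13.5 collections. As a check of the tissue, the surfactant protein gene Sftpc averaged 38.5 CPM in E13.5 mutants and 38.1 CPM in E13.5 controls. It had no less than 8030.0 CPM in any E18.5 library. Here CPM is counts per M counts of a library, with library totals taken over the tested genes and scaled by trimmed mean of M-values normalization. The share of counts in ribosomal RNA genes was 0.114 ± 0.0182% in E18.5 mutants and 0.0821 ± 0.0121% in E18.5 controls, against 0.0342 ± 0.00593% in E13.5 mutants and 0.0408 ± 0.0113% in E13.5 controls (SD, n = 6, 4, 5 and 5). Among the 4 same-numbered pairs at E18.5 it was higher in the mutant in 3. The number of genes with a count was 20379 to 22769 in E18.5 mutants and 22666 to 23982 in E18.5 controls, lower in the mutant in 4 of the pairs, and 23875 to 25363 in E13.5 mutants and 24854 to 25544 in E13.5 controls. The part of these measures in the falls at E18.5 was not tested. The ribosomal share itself differed between mutants and controls at E18.5, so the covariate fit given below cannot tell it apart from the mutant effect. E18.5 mutant replicate 6 stood apart on the second component (2.92% of the variance), at -84.6 against -13.2 to 24.1 in the other libraries; without it 4 genes passed the stage difference and 88 the E18.5 test, both described below. Replicate 1 of the E18.5 mutants stood apart on the third component (2.545%), at -68.7 against -19.2 to 26.4 in the other libraries. Without replicate 1, 7 genes passed the stage difference. In bulk tissue, fewer cells of a type and less RNA per cell cannot be told apart. The labels do not say whether lungs shared litters, so p-values measure the spread between these lungs.

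Myocd itself (chr11:65176561-65269989, minus strand, GRCm38) had 5.68, 6.85 and 10.4 CPM in E18.5 mutants (lowest, median, highest), against 12.1, 6.12, 10.7 and 8.81 CPM in E18.5 controls. It had 7.53, 13.1, 6.77, 12.8 and 13.1 CPM in E13.5 mutants, against 18.8, 10.1, 15.9, 10.2 and 10.5 CPM in E13.5 controls. Mutants and controls overlapped at both stages. The log2 fold change was -0.35 (SE 0.24) at E18.5 and -0.29 (SE 0.23) at E13.5, with a stage difference of -0.06 (SE 0.33). The labels do not name the floxed exons, and whole-gene counts include reads from exons that Cre leaves in place, so these values do not check the deletion.

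Promoter sequences are shown for genes with an early change, because short motifs known for ATF4 and SRF were matched in some of them. The sequences are from RefSeq, on GRCm38.p6, from 250 bases before to 50 bases after an annotated start, printed in the gene's direction. The first set is from genes that rose in E13.5 mutants: Nupr1 (chr7:126625421-126625720, minus strand), Chac1 (chr2:119350992-119351291, plus strand), Tars (chr15:11399609-11399908, minus strand) and Asns (chr6:7693160-7693459, minus strand). Capitals mark a match to TGATGNAA on either strand, the core of the element that ATF4 binds with its partners; a match on the opposite strand is printed as its reverse complement.

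Nupr1: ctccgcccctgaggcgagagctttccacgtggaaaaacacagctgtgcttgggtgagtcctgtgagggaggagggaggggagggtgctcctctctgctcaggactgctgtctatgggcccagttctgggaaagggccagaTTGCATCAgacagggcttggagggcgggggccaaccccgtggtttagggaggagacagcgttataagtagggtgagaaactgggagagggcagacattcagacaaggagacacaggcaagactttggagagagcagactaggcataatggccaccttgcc

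Chac1: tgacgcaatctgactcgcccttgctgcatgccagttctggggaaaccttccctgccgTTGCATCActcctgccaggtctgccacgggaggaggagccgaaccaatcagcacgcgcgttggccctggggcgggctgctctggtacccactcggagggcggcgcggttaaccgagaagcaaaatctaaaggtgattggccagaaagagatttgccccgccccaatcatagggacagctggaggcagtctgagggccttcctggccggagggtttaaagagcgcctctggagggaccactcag

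Tars: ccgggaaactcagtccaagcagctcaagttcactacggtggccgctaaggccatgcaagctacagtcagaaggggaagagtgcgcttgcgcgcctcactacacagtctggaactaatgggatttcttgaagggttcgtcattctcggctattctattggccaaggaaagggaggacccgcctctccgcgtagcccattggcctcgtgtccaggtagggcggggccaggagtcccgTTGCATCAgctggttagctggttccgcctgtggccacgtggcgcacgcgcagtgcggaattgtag

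Asns: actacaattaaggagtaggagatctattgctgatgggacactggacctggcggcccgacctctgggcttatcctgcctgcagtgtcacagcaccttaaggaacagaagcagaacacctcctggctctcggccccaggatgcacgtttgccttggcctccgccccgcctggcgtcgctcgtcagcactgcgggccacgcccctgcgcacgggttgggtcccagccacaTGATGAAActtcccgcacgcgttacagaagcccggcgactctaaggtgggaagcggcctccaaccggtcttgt

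Of the 13 genes past the E13.5 test as higher in mutants, 9 were in the promoter table and 6 of those (66.7%) held TGATGNAA, the other two being Gars and Yars. The motif was present at any start of 1219 of 27025 genes (4.51%), and in 3.97% of all promoters. It was present in 1 of 21 genes that fell early and in 1 of 75 that fell late, each counted among those in the table. Among the early rises in the table, Psph, Mthfd2 and Mns1 lacked it. On the serine synthesis and ATF4 response list described below, 4 of 14 genes in the table held it (28.6%). The second set is from genes that fell in E13.5 mutants: Asb2 (chr12:103355952-103356251, minus strand) and Myl9 (chr2:156775214-156775513, plus strand). Capitals mark a CArG box, taken here as an exact match to CC(A/T)6GG, with 6 bases of A or T in the middle. Each match reads as a CArG box on both strands.

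Asb2: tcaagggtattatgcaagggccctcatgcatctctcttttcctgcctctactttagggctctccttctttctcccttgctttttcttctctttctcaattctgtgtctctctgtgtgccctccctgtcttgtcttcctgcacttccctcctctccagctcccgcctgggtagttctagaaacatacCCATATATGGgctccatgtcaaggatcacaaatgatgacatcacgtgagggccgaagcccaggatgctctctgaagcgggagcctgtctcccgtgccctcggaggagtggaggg

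Myl9: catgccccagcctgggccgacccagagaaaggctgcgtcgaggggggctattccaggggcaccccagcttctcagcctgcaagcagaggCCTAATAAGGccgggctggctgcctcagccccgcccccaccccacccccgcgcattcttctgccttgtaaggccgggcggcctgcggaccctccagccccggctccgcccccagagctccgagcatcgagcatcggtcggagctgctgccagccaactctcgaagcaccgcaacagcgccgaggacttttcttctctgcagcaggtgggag

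A CArG box was present in 3 of the 21 early falling genes in the table (14.3%), namely Asb2, Myl9 and Myom1, and in 488 of all genes (1.81%). It was present in 0 of 75 late falling genes and 0 of 9 early rising genes. On the contractile smooth muscle list described below, 5 of 33 genes in the table held it (15.2%). Both motifs were chosen after the early genes were known, and a match only describes these letters. Acta2, Cnn1, Lmod1 and Synpo2 were in the table without an exact CArG match. Elements with a mismatch, or outside these windows, were not searched, so the absence of a match does not show that a gene lacks a CArG box.

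Across all genes, 5 of 18639 (0.0268%) passed the test of the stage difference: Lgr6 and Acta2 were higher (0.0107%) and Mns1, Nupr1 and Ccdc150 lower (0.0161%). The test was edgeR's quasi-likelihood test, two-sided, with Benjamini-Hochberg adjustment over all genes tested and a threshold of 0.05, and the adjusted p-values below come from it. Libraries were not paired by replicate number in this fit. At an unadjusted p under 0.05, 1090 genes passed (5.85%), 562 higher (3.02%) and 528 lower (2.83%). In the same fit, mutants and controls differed at E18.5 in 131 genes (0.703%), 24 higher (0.129%) and 107 lower (0.574%). At E13.5 they differed in 41 genes (0.22%), 13 higher (0.0697%) and 28 lower (0.15%). Genes past the E18.5 test are called late falls and rises below, genes past the E13.5 test early falls and rises, and 4 genes passed at both stages. Early changes that faded numbered 4 (0.0215%): Acta2, Lgr6, Nupr1 and Mns1. Late changes numbered 2 (0.0107%): Ccdc150 and Mns1, which changed in opposite directions and counts under both. The stage difference passed for 8 genes without E18.5 mutant replicate 2, 3 without E18.5 control replicate 1, 19 without E18.5 control replicate 2, 11 without E13.5 mutant replicate 1 and 16 without E13.5 mutant replicate 5. The E18.5 count was 203 and 66 in fits that left out E18.5 mutant replicate 3 or 4, and 20, 302, 71 and 56 in those that left out control replicate 1, 2, 3 or 4. The E13.5 count was 24 without E13.5 mutant replicate 2 and 26 without control replicate 4. With the ribosomal RNA share as a covariate, 14 genes passed at E18.5, and in the stage difference Mns1 alone passed (stage difference -1.15, adjusted p = 0.0326); the stage difference was then 1.14 for Acta2, 1.42 for Lgr6, -1.38 for Nupr1 and -1.58 for Ccdc150.

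**Figure D1:**
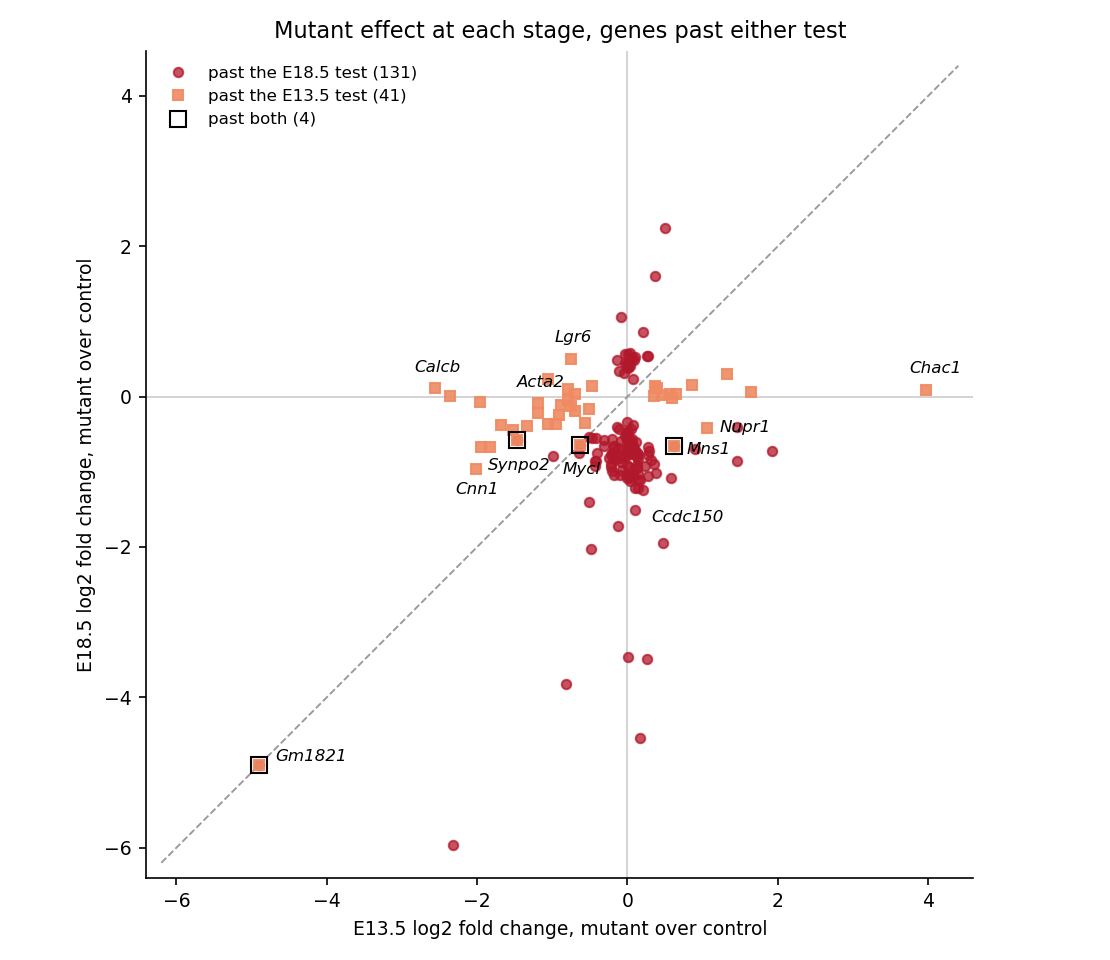
Each point is a gene past the test at E18.5 (131, circles) or at E13.5 (41, squares); the 4 past both are outlined. The x axis is the log2 fold change of mutants over controls at E13.5, the y axis that at E18.5, and the dashed line marks equal effects. Most squares lie near 0 on the y axis and most circles near 0 on the x axis, which choosing genes by 1 axis also brings about.

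The plot of both effects sets the early and late genes along separate axes. A gene chosen for a large estimate at one stage tends to have a smaller one at the other by selection alone, so these medians are a description. The 28 early falls had a median log2 fold change of -0.21 at E18.5 and -1.06 at E13.5. The 13 early rises had medians of 0.04 at E18.5 and 0.62 at E13.5. At E18.5, 21 of the 28 were still below 0 and 10 of the 13 still above 0. The 107 late falls had medians of -0.78 at E18.5 and 0.00 at E13.5. Mutant and control libraries did not overlap at E13.5 for 36 of the 41 early genes (0.966% of all genes), which choosing them at that stage brings about, and at E18.5 for 9 of them (2.31% of all genes). Across the 12096 genes that averaged 5 CPM or more over the 20 libraries, the effects at the 2 stages had a Pearson r of 0.162 and a Spearman rho of 0.108, and 53.7% had the same sign; the points are genes, which share the libraries of each stage.

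Of the genes that fell at E13.5, Acta2 and Lgr6 had a fading that passed the test. Acta2 (chr19:34241090-34255336, minus strand), the smooth muscle actin, had 96.4, 114 and 121 CPM in E18.5 mutants (lowest, median, highest), against 127, 132, 104 and 117 CPM in E18.5 controls. It had 161, 92.4, 148, 144 and 184 CPM in E13.5 mutants, against 339, 349.9, 279.6, 361 and 339 CPM in E13.5 controls. Every E13.5 mutant lay below every E13.5 control, while at E18.5 the groups overlapped and all 10 libraries lay within the range of the E13.5 mutants. Its log2 fold change was -0.09 (SE 0.12, adjusted p = 0.862) at E18.5 and -1.20 (SE 0.12, adjusted p = 6.4e-06) at E13.5. The stage difference was 1.11 (SE 0.17, adjusted p = 0.00701), and it passed in 20 of 20 fits that left out 1 library. With replicate numbers as a block at E18.5, where same-numbered libraries deviated together, its adjusted p was 0.0602; it was 0.084 with the block at both stages, 0.0955 by limma and 0.0735 with the ribosomal covariate.

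Lgr6 (chr1:134983301-135105276, minus strand), a receptor for R-spondins expressed in smooth muscle around the airways, also fell early. It had 21.2, 34.4 and 37.6 CPM in E18.5 mutants (lowest, median, highest), against 18.4, 28.4, 21.6 and 19.5 CPM in E18.5 controls. It had 14.4, 15.2, 13.6, 19.02 and 17.7 CPM in E13.5 mutants, against 29.5, 21.4, 27.8, 27.9 and 28.2 CPM in E13.5 controls. The E13.5 mutants were all below the E13.5 controls, whereas 4 of the 6 E18.5 mutants were above every E18.5 control. Between mutants and controls the log2 fold change was 0.50 (SE 0.16, adjusted p = 0.182) at E18.5 and -0.75 (SE 0.16, adjusted p = 0.046) at E13.5. The stage difference of 1.26 (SE 0.23, adjusted p = 0.0459) lay close to the threshold: it passed in 6 of 20 fits that left out 1 library, with adjusted p-values of 0.0091 to 0.173. With the block at E18.5 its adjusted p was 0.139, and it also missed the threshold with the block at both stages, with the ribosomal covariate and with no filter on low counts.

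**Figure D2:**
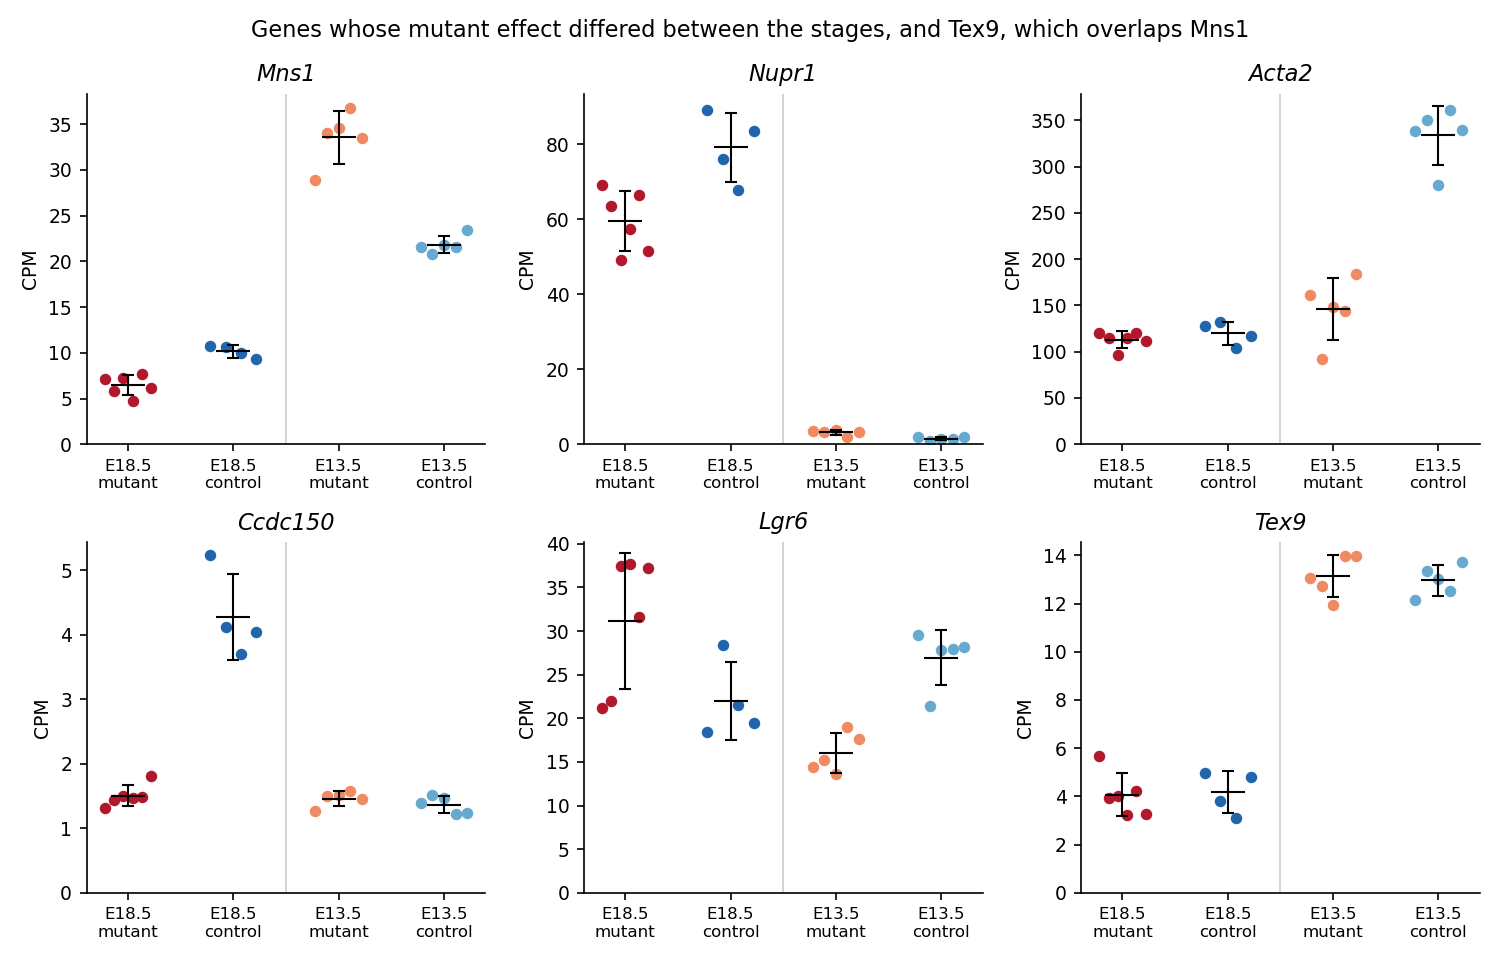
Counts per M (CPM, y axis) of the 5 genes whose stage difference passed the test, and of Tex9, whose exons overlap those of Mns1, in E18.5 mutants (n = 6), E18.5 controls (n = 4), E13.5 mutants (n = 5) and E13.5 controls (n = 5). Points are libraries; the bar and whiskers are mean and SD. Acta2 is lower in every mutant at E13.5 and overlaps at E18.5, Ccdc150 is lower in every mutant at E18.5 and overlaps at E13.5, and Mns1 is lower in mutants at E18.5 and higher at E13.5.

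Of the 38 genes of the contractile smooth muscle list, all tested, 1 fell past the test at E18.5 (Synpo2; 0.574% of all genes) and 8 at E13.5 (0.15% of all genes): Acta2, Cnn1, Myh11, Myl9, Synpo2, Lmod1, Pdlim3 and Jph2. The median log2 fold change was -0.11 at E18.5 and -0.26 at E13.5, and the median stage difference was 0.17. Over all genes tested these medians were 0.00, 0.01 and -0.01. This list and those below were chosen with earlier results of these data known, so their counts beside all genes are a description. At an unadjusted p under 0.05, 5 members were lower at E18.5 (6.37% of all genes) and 16 at E13.5 (1.89% of all genes; 2.66% in either direction). The stage difference was above 0 for 31 of 38 (9039 of all 18639), and higher at an unadjusted p under 0.05 for 13 (3.02% of all genes), but Acta2 alone passed over all genes. DESeq2 called 4 members higher (0.123% of all genes) and limma 2 (0.0697%); without E13.5 mutant replicate 5, edgeR called 5.

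The mean level of the list, as log2(CPM + 1), was 5.58 ± 0.0229 in E18.5 mutants and 5.72 ± 0.03498 in E18.5 controls, and 4.80 ± 0.162 in E13.5 mutants and 5.24 ± 0.134 in E13.5 controls (SD, n = 6, 4, 5 and 5). All E18.5 mutants were below all E18.5 controls, while the E13.5 groups overlapped, mutant replicate 5 lying above control replicate 2. The difference of mutants minus controls was -0.14 at E18.5 and -0.44 at E13.5.

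Within that list the early fall was uneven. Myh11, the smooth muscle myosin heavy chain, had 70.2, 81.9 and 97.1 CPM in E18.5 mutants (lowest, median, highest), against 113, 109, 108 and 98.2 CPM in E18.5 controls. It had 42.9, 31.8, 36.7, 39.8 and 94.4 CPM in E13.5 mutants, against 206, 119, 157, 157 and 150.3 CPM in E13.5 controls. No mutant reached a control at either stage, and E13.5 mutant replicate 5 stood apart from the other mutants. In log2 terms the fold change was -0.37 (SE 0.22, adjusted p = 0.572) at E18.5 and -1.68 (SE 0.22, adjusted p = 7.4e-04) at E13.5. Its stage difference was 1.31 (SE 0.31, adjusted p = 0.244), and 1.69 (adjusted p = 1.5e-05) without that library.

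Cnn1, the smooth muscle calponin, had 1.67, 2.68 and 3.802 CPM in E18.5 mutants (lowest, median, highest), against 6.101, 5.75, 4.53 and 3.798 CPM in E18.5 controls. It had 6.93, 4.28, 5.82, 5.01 and 14.3 CPM in E13.5 mutants, against 31.4, 24.8, 24.9, 32.95 and 33.2 CPM in E13.5 controls. All E13.5 mutants were below the E13.5 controls, with replicate 5 again the nearest to them. Its fold change on the log2 scale was -0.96 (SE 0.27, adjusted p = 0.112) at E18.5 and -2.01 (SE 0.25, adjusted p = 1.1e-04) at E13.5, with a stage difference of 1.06 (SE 0.37, adjusted p = 0.636). Fhl1, a LIM-domain protein of muscle and an abundant member of the list, averaged 1208 ± 49.1 CPM in E18.5 mutants and 1231 ± 32.3 CPM in E18.5 controls, and 130.2 ± 17.5 CPM in E13.5 mutants and 138 ± 22.3 CPM in E13.5 controls (SD, n = 6, 4, 5 and 5). Its stage difference was 0.06 (SE 0.14), within its error of 0.

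Myl9, a regulatory light chain of myosin whose promoter is shown above, had log2 fold changes of -0.12 (SE 0.12, adjusted p = 0.781) at E18.5 and -0.75 (SE 0.11, adjusted p = 0.00133) at E13.5. Lmod1, which nucleates actin filaments, had ones of -0.44 (SE 0.22, adjusted p = 0.474) at E18.5 and -1.52 (SE 0.22, adjusted p = 9.6e-04) at E13.5. Their stage differences were 0.63 (SE 0.16, adjusted p = 0.312) for Myl9 and 1.08 (SE 0.32, adjusted p = 0.461) for Lmod1, neither past the test.

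Synpo2, an actin-binding protein of muscle, fell at both stages. It had 10.3, 13.9 and 15 CPM in E18.5 mutants (lowest, median, highest), against 21.4, 22.2, 18.6 and 18.4 CPM in E18.5 controls. It had 11.3, 12.7, 15.1, 13.98 and 19.9 CPM in E13.5 mutants, against 43.3, 38.4, 39.97, 42.1 and 39.7 CPM in E13.5 controls. The groups did not overlap at either stage. For this gene the log2 fold change was -0.58 (SE 0.12, adjusted p = 0.0222) at E18.5 and -1.47 (SE 0.12, adjusted p = 2.7e-07) at E13.5, and the stage difference was 0.89 (SE 0.17, adjusted p = 0.0756).

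Synpo2 was 1 of 9 genes tied at that adjusted p, just outside the threshold, which are named here after their values were seen. Jph2, another of them, ties the plasma membrane to the sarcoplasmic reticulum. It had 36.6, 42.3 and 47.5 CPM in E18.5 mutants (lowest, median, highest), against 42.98, 42.1, 35.2 and 45.2 CPM in E18.5 controls. It had 13.4, 13.01, 13.8, 14.5 and 18.2 CPM in E13.5 mutants, against 25.03, 19.8, 22.7, 25.8 and 25.7 CPM in E13.5 controls. Its groups overlapped at E18.5 and not at E13.5, and the stage difference was 0.73 (SE 0.14). Another 5 of the tied genes had fallen past the E13.5 test. Their stage differences were 2.36 for Nipal4, a magnesium transporter, 1.88 for Asb2, a ubiquitin ligase subunit of muscle, 1.29 for Crispld2, a secreted protein of lung mesenchyme, 0.96 for Fhdc1, a formin-family protein, and 0.62 for Tgfb1i1, a focal adhesion adaptor. Their E18.5 log2 fold changes, none past the test, were 0.01 for Nipal4, -0.08 for Asb2, 0.23 for Crispld2, -0.39 for Fhdc1 and 0.14 for Tgfb1i1. The remaining tied genes, Cfap74 and Drc3, fell late and are given with the cilia genes.

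Other early falls had stage differences short of the threshold. Hmcn2, a hemicentin of the extracellular matrix, averaged 4.93 ± 0.757 CPM in E18.5 mutants and 7.82 ± 0.764 CPM in E18.5 controls, and 0.798 ± 0.604 CPM in E13.5 mutants and 3.14 ± 1.09 CPM in E13.5 controls (SD, n = 6, 4, 5 and 5), with a stage difference of 1.28 (SE 0.42, adjusted p = 0.612). Nt5e, an ectonucleotidase that makes adenosine, averaged 8.64 ± 1.57 CPM in E18.5 mutants and 13.7 ± 1.77 CPM in E18.5 controls, and 0.956 ± 0.344 CPM in E13.5 mutants and 3.41 ± 0.844 CPM in E13.5 controls (SD, n = 6, 4, 5 and 5), with a stage difference of 1.16 (SE 0.29, adjusted p = 0.268). At E18.5 the log2 fold change was -0.66 (SE 0.27, adjusted p = 0.341) for Hmcn2 and -0.67 (SE 0.19, adjusted p = 0.105) for Nt5e.

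The list of SRF and its cofactors also holds cytoskeletal and adhesion genes, among them Actb, Flna, Vcl and Zyx. Of its genes 14 of 14 were tested, with a median stage difference of 0.09. At E13.5, 1 member, Tgfb1i1, fell past the test (0.15% of all genes). By edgeR 0 members passed the stage difference, with 3 higher at an unadjusted p under 0.05 (3.02% of all genes). In the stage difference DESeq2 called 1 higher (0.123%) and limma 1 (0.0697%). Actb, the cytoskeletal actin, had a stage difference of 0.29 (SE 0.13, adjusted p = 0.809) and Flna, an actin cross-linker, one of -0.07 (SE 0.16). The airway smooth muscle and peribronchial mesenchyme list, 18 of 19 genes tested, had a median of 0.10. Lgr6 passed the test (0.0107% of all genes were higher). At an unadjusted p under 0.05, 3 members were higher (3.02%) and 1 lower (2.83%). At E18.5, 1 member, Chrm2, fell past the test (0.574% of all genes). In fits that left out 1 library, the stage difference of Chrm2 ran from -1.07 to -0.74 and passed in 0 of 20. The abundant nonmuscle myosin gene Myh10 of this list had a stage difference of -0.03 (SE 0.14). The vascular smooth muscle and pericyte list, 15 of 15 tested, had a median of 0.09, whose sign changed in 1 of 29 alternatives. By edgeR, DESeq2 and limma 0 of its members passed, with 1 higher at an unadjusted p under 0.05 (3.02%); Eln, elastin, had a stage difference of 0.15 (SE 0.18) and Gucy1a1, a nitric oxide receptor subunit, one of -0.16 (SE 0.11).

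**Figure D3:**
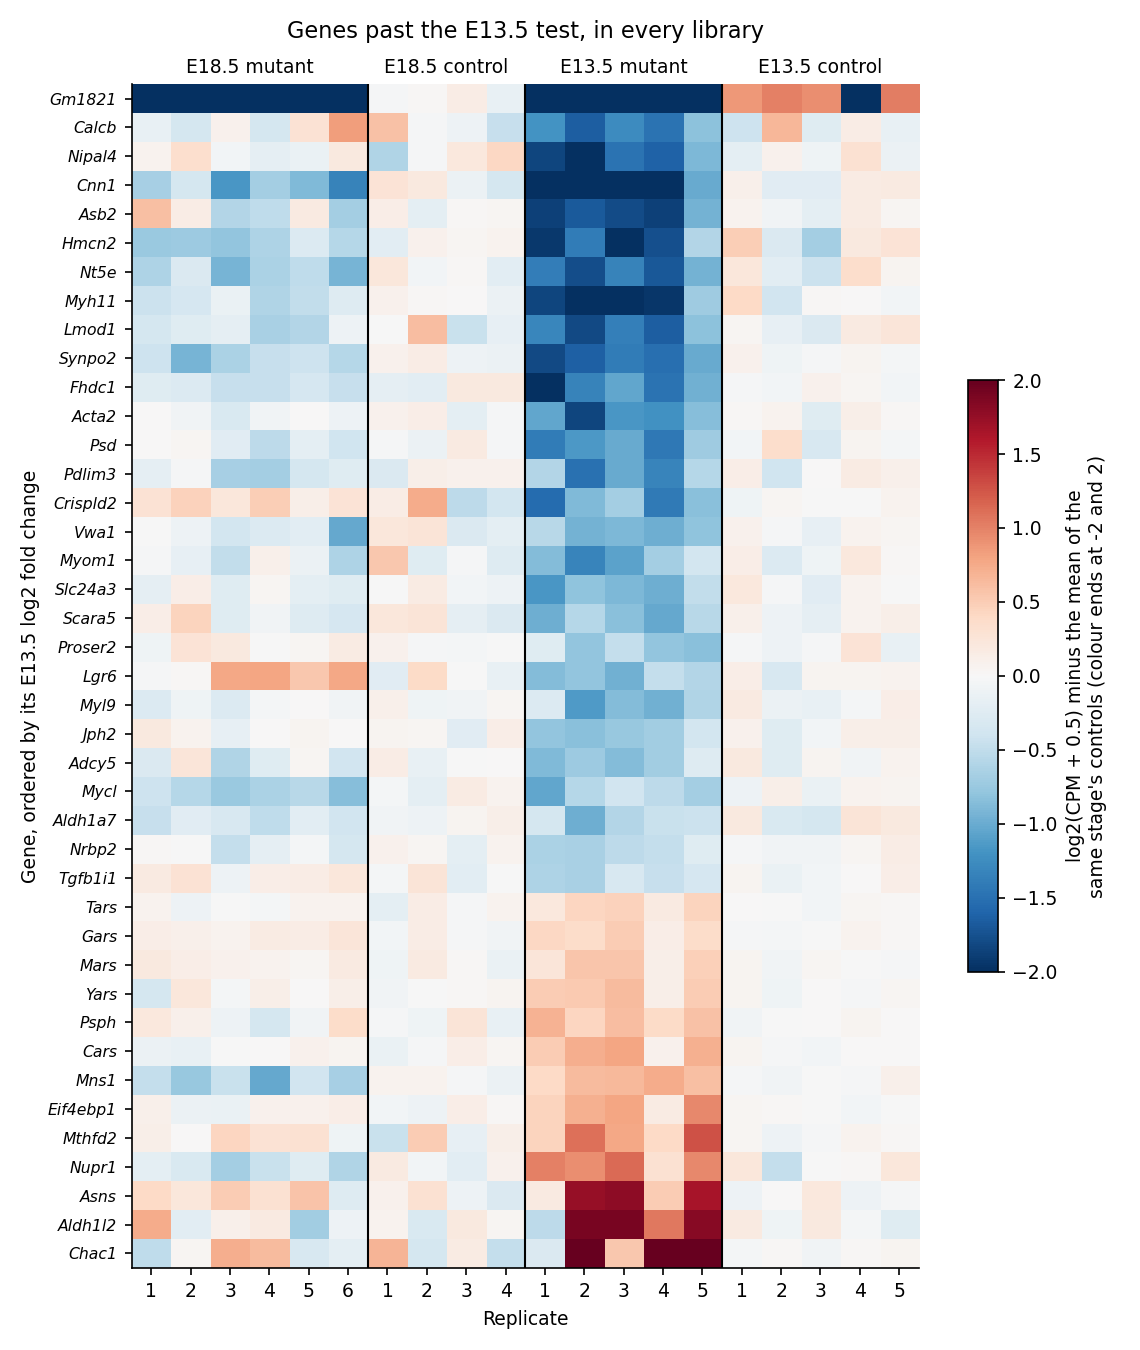
Genes past the E13.5 test (41, down the page, ordered by E13.5 log2 fold change) in each of the 20 libraries (across, by group and replicate). Colour gives log2(CPM + 0.5) minus the mean of the controls of the same stage, with the colour scale ending at -2 and 2. Many of the strong colours of the E13.5 mutants are paler in the E18.5 mutants. Gm1821, Cnn1, Nt5e, Hmcn2, Mycl and Synpo2, with E18.5 log2 fold changes of -0.58 or lower, stay blue, and Mns1 turns blue.

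The plot of the early genes by library shows that falls and rises were not weakest in the same mutants. Of the 28 falls, 19 were nearest the control mean in E13.5 mutant replicate 5, whose median deviation was -0.72 on the log2 scale, against -1.26 in replicate 4. Of the 13 rises, 9 were nearest in replicate 4 and 4 in replicate 1, with median deviations of 0.31 and 0.42, against 0.71 in replicate 5.

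Of the 13 early rises, 5 are on the list of serine synthesis and ATF4 response genes and 5 code for cytosolic tRNA synthetases. Nupr1 (chr7:126623249-126630861, minus strand), which codes for a stress-induced chromatin protein, was the only early rise besides Mns1 to pass the test of the stage difference. It had 49.2, 60.6 and 69.1 CPM in E18.5 mutants (lowest, median, highest), against 89.2, 76.2, 67.9 and 83.6 CPM in E18.5 controls. It had 3.49, 3.29, 3.85, 1.97 and 3.35 CPM in E13.5 mutants, against 1.81, 0.935, 1.48, 1.52 and 1.83 CPM in E13.5 controls. The E13.5 mutants were all above the controls, at levels far below those of E18.5, where the groups overlapped. The log2 fold change was -0.41 (SE 0.13, adjusted p = 0.174) at E18.5 and 1.06 (SE 0.19, adjusted p = 0.00659) at E13.5. Its stage difference of -1.47 (SE 0.23, adjusted p = 0.00701) passed in 20 of 20 fits that left out 1 library and in 6 of 9 other alternatives. Its adjusted p was 0.0522 by limma, 0.0547 with the block at both stages and 0.0927 with the ribosomal covariate.

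The list of serine synthesis and ATF4 response genes held 15 genes, all tested. It too was chosen with earlier results of these data known. At E13.5, 5 rose past the test (0.0697% of all genes): Chac1, Asns, Aldh1l2, Mthfd2 and Psph. At an unadjusted p under 0.05, 13 of 15 were higher at E13.5 (0.762% of all genes). At E18.5 edgeR called 0, with 2 higher at an unadjusted p under 0.05 (4.81% of all genes). The median log2 fold change was 0.16 at E18.5 and 0.43 at E13.5, and the median stage difference was -0.46. The stage difference passed for 0 members by edgeR, DESeq2 or limma (0.0966% of all genes were lower by DESeq2 and 0.0429% by limma), with 8 lower at an unadjusted p under 0.05 (2.83%). As mean log2(CPM + 1), the list lay at 4.18 ± 0.08503 in E18.5 mutants and 4.09 ± 0.0691 in E18.5 controls, which overlapped, and at 5.34 ± 0.359 in E13.5 mutants and 4.73 ± 0.0348 in E13.5 controls, which did not (SD, n = 6, 4, 5 and 5).

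Asns, asparagine synthetase, had 5.58, 8.72 and 10.2 CPM in E18.5 mutants (lowest, median, highest), against 7.18, 8.48, 6.24 and 5.41 CPM in E18.5 controls. It had 39.6, 118, 121, 49.6 and 109.7 CPM in E13.5 mutants, against 32.4, 35.1, 40.5, 32.3 and 34.3 CPM in E13.5 controls. E13.5 mutant replicates 2, 3 and 5 were well above the controls and replicates 1 and 4 nearer to them. Between mutants and controls the log2 fold change was 1.33 (SE 0.24, adjusted p = 0.0151) at E13.5, and the stage difference -1.02 (SE 0.36, adjusted p = 0.653). Chac1, a glutathione-degrading enzyme, varied more: it had 0.361, 8.52, 1.03, 4.83 and 28.6 CPM in E13.5 mutants, against 0.523, 0.575, 0.506, 0.571 and 0.597 CPM in E13.5 controls. Replicate 1 of the mutants lay below every control and replicate 5 far above. Its log2 fold change was 3.97 (SE 0.81, adjusted p = 0.04998) at E13.5, at the threshold, and its stage difference was -3.88 (SE 1.09, adjusted p = 0.461).

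Aldh1l2, a mitochondrial folate enzyme, had 1.45, 9.86, 9.88, 5.29 and 9.37 CPM in E13.5 mutants, against 2.65, 2.12, 2.698, 2.21 and 1.87 CPM in E13.5 controls. Mutant replicate 1 again lay below every control and the other mutants above. For it the stage difference was -1.58 (SE 0.47, adjusted p = 0.491). Mthfd2, also of mitochondrial folate metabolism, had 65.9, 105, 83.1, 64.1 and 118 CPM in E13.5 mutants, against 49.6, 45.1, 47.4, 50.5 and 48.8 CPM in E13.5 controls, without overlap. In log2 terms the fold change was 0.16 (SE 0.19) at E18.5 and 0.85 (SE 0.16, adjusted p = 0.01002) at E13.5, with a stage difference of -0.70 (SE 0.24, adjusted p = 0.636).

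Of the early rises outside that list, 5 were cytosolic tRNA synthetases: Cars, Tars, Gars, Mars and Yars. Of 20 cytosolic synthetase genes, a list drawn up after the values were seen, 5 rose at E13.5 (0.0697% of all genes) and 0 at E18.5 by edgeR (0.129%), where 1 was higher at an unadjusted p under 0.05 (4.81%). The stage difference was lower at an unadjusted p under 0.05 for 10 (2.83% of all genes). Cars, for cysteine, had 37.03, 41.03 and 43.4 CPM in E18.5 mutants (lowest, median, highest), against 37.2, 40.1, 44.8 and 42.1 CPM in E18.5 controls. It had 104, 121, 126, 77.3 and 119 CPM in E13.5 mutants, against 75.4, 71.8, 70.1, 73.1 and 72.8 CPM in E13.5 controls. All 5 E13.5 mutants lay above the controls. Its stage difference was -0.61 (SE 0.14, adjusted p = 0.142). For Eif4ebp1, an inhibitor of cap-dependent translation that ATF4 induces, the stage difference was -0.62 (SE 0.15, adjusted p = 0.232) and the E13.5 log2 fold change 0.65 (SE 0.11, adjusted p = 0.00318).

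**Figure D4:**
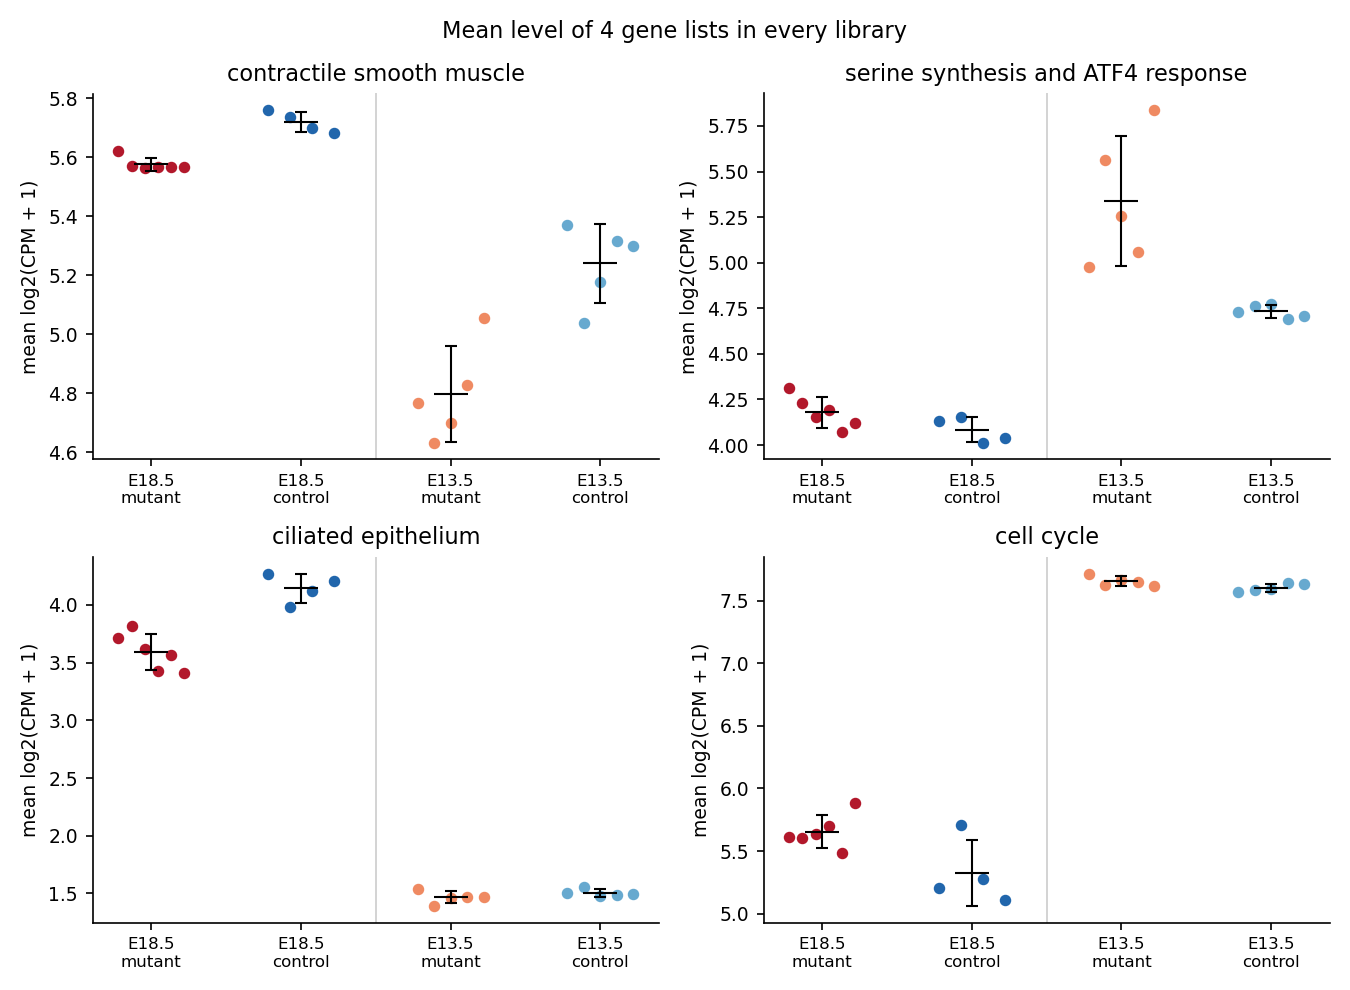
Mean log2(CPM + 1) over the tested members of 4 gene lists (y axis, not starting at 0) in each library of E18.5 mutants (n = 6), E18.5 controls (n = 4), E13.5 mutants (n = 5) and E13.5 controls (n = 5); the bar and whiskers are mean and SD. The contractile groups lie closer at E18.5 than at E13.5, the serine and ATF4 genes are higher in every mutant at E13.5, the ciliated genes are lower in every mutant at E18.5, and the cell cycle groups overlap at both stages.

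Late falls included many genes of motile cilia. Ccdc150 (chr1:54250683-54368727, plus strand), a coiled-coil protein gene that lies below the level of 5 CPM set for named genes, was the only gene with a late change and no early one. It had 1.32, 1.48 and 1.81 CPM in E18.5 mutants (lowest, median, highest), against 5.23, 4.12, 3.697 and 4.04 CPM in E18.5 controls. It had 1.27, 1.497, 1.52, 1.57 and 1.45 CPM in E13.5 mutants, against 1.39, 1.51, 1.48, 1.22 and 1.23 CPM in E13.5 controls. The E18.5 controls stood apart, and the other 3 groups lay at similar levels. Its fold change on the log2 scale was -1.5 (SE 0.17, adjusted p = 1.5e-04) at E18.5 and 0.10 (SE 0.18) at E13.5. The stage difference was -1.60 (SE 0.25, adjusted p = 0.00701); without E18.5 control replicate 1 its adjusted p was 0.0509, and it also missed the threshold with the block at both stages, with the ribosomal covariate and with no filter on low counts.

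Of 31 genes on the ciliated epithelium list, 29 were tested, and 12 of those fell at E18.5 (0.574% of all genes). They included Foxj1, the master regulator of motile cilia, Dnah5 and Dnah9, axonemal dyneins, and Hydin, of the central apparatus. At E13.5, where 18 of the 29 averaged under 1 CPM in both groups, edgeR called 0, with 0 higher and 0 lower at an unadjusted p under 0.05. The median log2 fold change was -0.69 at E18.5 and -0.02 at E13.5, and the median stage difference -0.55. By edgeR, DESeq2 and limma 0 members passed the test of the stage difference; 7 were lower at an unadjusted p under 0.05 (2.83% of all genes) and 26 of 29 were below 0 (9600 of all 18639). As mean log2(CPM + 1), the list lay at 3.59 ± 0.159 in E18.5 mutants and 4.15 ± 0.126 in E18.5 controls, without overlap, and at 1.47 ± 0.0527 in E13.5 mutants and 1.503 ± 0.03195 in E13.5 controls, with overlap (SD, n = 6, 4, 5 and 5).

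Foxj1 averaged 40.9 ± 5.199 CPM in E18.5 mutants and 61.6 ± 6.25 CPM in E18.5 controls, and 1.5 ± 0.444 CPM in E13.5 mutants and 1.59 ± 0.349 CPM in E13.5 controls (SD, n = 6, 4, 5 and 5). For this gene the log2 fold change was -0.59 (SE 0.12, adjusted p = 0.02002) at E18.5, with a stage difference of -0.51 (SE 0.22). Hydin averaged 11.3 ± 2.15 CPM in E18.5 mutants and 23.2 ± 5.803 CPM in E18.5 controls, and 0.457 ± 0.118 CPM in E13.5 mutants and 0.501 ± 0.0844 CPM in E13.5 controls (SD, n = 6, 4, 5 and 5), and changed on the log2 scale by -1.04 (SE 0.16, adjusted p = 0.00254) at E18.5, with a stage difference of -0.94 (SE 0.32). Cfap46, a protein of the central apparatus, had 5.51, 8.48 and 11.9 CPM in E18.5 mutants (lowest, median, highest), against 21.2, 12.8, 21.5 and 17.1 CPM in E18.5 controls, and between 0.0602 and 0.495 CPM in the E13.5 libraries. All E18.5 mutants were below all E18.5 controls. Its log2 fold change was -1.11 (SE 0.21, adjusted p = 0.011) at E18.5, and its stage difference -1.27 (SE 0.46, adjusted p = 0.653).

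Fam183b, a ciliary protein gene, had -1.21 (SE 0.22, adjusted p = 0.00866) as its log2 fold change at E18.5. Lrrc36 and Fam216b, whose products are less studied, had E18.5 log2 fold changes of -1.10 (SE 0.21, adjusted p = 0.011) and -1.21 (SE 0.25, adjusted p = 0.0191), and none of these 3 genes exceeded 0.2503 CPM in any E13.5 library. The most abundant members of the ciliated list had smaller stage differences: Tubb4b, a tubulin, had a stage difference of -0.13 (SE 0.13), and Cfap43, an axonemal protein, one of -0.17 (SE 0.14). Among all late falls, 7 were Dnah genes of 16 tested and 7 were Cfap genes of 30 tested (0.574% of all genes fell); these names were grouped after their values were seen.

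Cfap74, an axonemal protein, and Drc3, of the nexin-dynein regulatory complex, were measurable at both stages and were tied with Synpo2 just outside the threshold. Drc3 had 10.8, 13.01 and 15.95 CPM in E18.5 mutants (lowest, median, highest), against 25.6, 18.53, 19.4 and 24.97 CPM in E18.5 controls. It had 2.29, 2.33, 2.54, 2.04 and 2.29 CPM in E13.5 mutants, against 2.41, 1.83, 1.39, 2.06 and 1.79 CPM in E13.5 controls. Its groups did not overlap at E18.5. The log2 fold change was -0.78 (SE 0.13, adjusted p = 0.00598) at E18.5 and 0.27 (SE 0.16) at E13.5, a stage difference of -1.05 (SE 0.21). For Cfap74 the log2 fold change was -0.90 (SE 0.16, adjusted p = 0.00908) at E18.5 and 0.35 (SE 0.18) at E13.5, a stage difference of -1.25 (SE 0.24).

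The level at E13.5 limits what these data can say of late changes. Of the 107 late falls, 48 averaged under 1 CPM in both E13.5 groups, as did 4138 of all genes tested (22.2%). The median SE of the stage difference was 0.42 over late genes under 1 CPM and 0.18 over late genes at 1 CPM or more. For the 59 late falls at 1 CPM or more, the median log2 fold change was -0.74 at E18.5 and -0.01 at E13.5.

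Genes of secretory airway cells were also among the late falls. Scgb1a1, the club cell secretory protein, had 291, 373 and 435 CPM in E18.5 mutants (lowest, median, highest), against 732, 714, 619.7 and 719 CPM in E18.5 controls, and 0 counts in every E13.5 library. Its E18.5 groups did not overlap, and its log2 fold change was -0.91 (SE 0.10, adjusted p = 0.00111); no stage difference can be measured for it. Scgb3a2, a related secretoglobin, averaged 396 ± 63.5 CPM in E18.5 mutants and 541 ± 69.7 CPM in E18.5 controls, and 1.02 ± 0.778 CPM in E13.5 mutants and 2.32 ± 1.37 CPM in E13.5 controls (SD, n = 6, 4, 5 and 5), with a stage difference of 0.83 (SE 0.56, adjusted p = 0.924). Of 18 genes on the list, 15 were tested: 3 fell at E18.5 (0.574% of all genes) and 1 at E13.5 (0.15%), Aldh1a7, an aldehyde dehydrogenase. The 3 were Scgb1a1, Cyp2s1 and Aldh1a1. In fits that left out 1 library, the stage difference stayed near 0 for Cyp2s1 (-0.13 to 0.04) and Aldh1a1 (-0.19 to -0.006). The list medians were -0.45 at E18.5 and -0.48 at E13.5. The median stage difference of -0.08 changed sign in 4 of 29 alternatives. By edgeR and limma 0 members passed the test of the stage difference, with 2 higher at an unadjusted p under 0.05 (3.02% of all genes) and 1 higher by DESeq2 (0.123%). Of the 15 genes, 9 averaged under 1 CPM in both E13.5 groups. The mean level of the list, as log2(CPM + 1), was 5.14 ± 0.204 in E18.5 mutants and 5.59 ± 0.136 in E18.5 controls, without overlap, and 1.45 ± 0.119 in E13.5 mutants and 1.66 ± 0.153 in E13.5 controls, with overlap (SD, n = 6, 4, 5 and 5). The difference of mutants minus controls was -0.46 at E18.5 and -0.21 at E13.5.

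Aldh3a1, an aldehyde dehydrogenase of epithelia, lay at 0.427 to 3.75 CPM in E18.5 mutants, against 9.498, 6.45, 5.09 and 6.02 CPM in E18.5 controls, and at no more than 0.0832 CPM at E13.5. In log2 terms the fold change was -1.95 (SE 0.37, adjusted p = 0.011) at E18.5. Ntrk2, a neurotrophin receptor, had 1.21, 2.49 and 4.83 CPM in E18.5 mutants (lowest, median, highest), against 8.04, 4.15, 7.81 and 9.58 CPM in E18.5 controls. For this gene the log2 fold change was -1.41 (SE 0.29, adjusted p = 0.02002) at E18.5, with a stage difference of -0.89 (SE 0.47, adjusted p = 0.903).

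The 24 late rises were smaller, with medians of 0.49 at E18.5 and 0.03 at E13.5. A few are named here after their values were seen. Cdt1, which licenses replication origins, rose by 0.45 (SE 0.10, adjusted p = 0.029) on the log2 scale at E18.5 and had a stage difference of 0.48 (SE 0.14, adjusted p = 0.461). For Lig1, a DNA ligase, these were 0.40 (SE 0.09, adjusted p = 0.0254) and 0.37 (SE 0.12, adjusted p = 0.598), and for Cdc7, a replication kinase, 0.56 (SE 0.13, adjusted p = 0.0433) and 0.55 (SE 0.18, adjusted p = 0.598). Tgfbi, a matrix protein, averaged 303 ± 57.2 CPM in E18.5 mutants and 210.2 ± 38.2 CPM in E18.5 controls, and 439 ± 30.1 CPM in E13.5 mutants and 409 ± 9.77 CPM in E13.5 controls (SD, n = 6, 4, 5 and 5). Gdf10, a ligand of the TGF-beta family, averaged 41.2 ± 4.49 CPM in E18.5 mutants and 27.9 ± 5.399 CPM in E18.5 controls, and 10.6 ± 1.57 CPM in E13.5 mutants and 10.8 ± 1.496 CPM in E13.5 controls (SD, n = 6, 4, 5 and 5). The stage difference was 0.43 (SE 0.16, adjusted p = 0.69) for Tgfbi and 0.59 (SE 0.18, adjusted p = 0.519) for Gdf10.

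The cell cycle list, 21 of 21 genes tested, had median log2 fold changes of 0.32 at E18.5 and 0.07 at E13.5 and a median stage difference of 0.29. By edgeR 0 of its members passed at either stage or in the stage difference, and DESeq2 and limma called 0 in the stage difference. The stage difference was above 0 for 21 of 21 (9039 of all 18639), 11 at an unadjusted p under 0.05 (3.02% of all genes). By the same unadjusted standard 15 were higher at E18.5 (4.81% of all genes) and 0 at E13.5 (0.762%). Mean list levels were 5.49 to 5.89 in E18.5 mutants and 5.11 to 5.70 in E18.5 controls, and the overlap came from control replicate 2.

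Mns1 (chr9:72438011-72462025, plus strand), a protein of the axoneme of cilia and sperm tails, changed in opposite directions at the 2 stages. It had 4.71, 6.66 and 7.67 CPM in E18.5 mutants (lowest, median, highest), against 10.7, 10.6, 9.94 and 9.29 CPM in E18.5 controls. It had 28.9, 34.01, 34.6, 36.8 and 33.5 CPM in E13.5 mutants, against 21.5, 20.8, 21.8, 21.6 and 23.4 CPM in E13.5 controls. The groups did not overlap at either stage. Between mutants and controls the log2 fold change was -0.65 (SE 0.11, adjusted p = 0.00598) at E18.5 and 0.62 (SE 0.10, adjusted p = 0.00319) at E13.5. The stage difference of -1.27 (SE 0.15, adjusted p = 2.4e-04) passed in 20 of 20 fits that left out 1 library and in 9 of 9 other alternatives. Of its exon bases, 52.99% overlap Tex9 on the other strand. Reads were counted without strand, so a read within the shared bases cannot be assigned to either gene by strand. Tex9 averaged 4.07 ± 0.892 CPM in E18.5 mutants and 4.17 ± 0.873 CPM in E18.5 controls, and 13.1 ± 0.874 CPM in E13.5 mutants and 12.96 ± 0.641 CPM in E13.5 controls (SD, n = 6, 4, 5 and 5), with a stage difference of -0.06 (SE 0.21).

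Besides Synpo2 and Mns1, Mycl and Gm1821 passed at both stages, with stage differences near 0. Mycl, a MYC-family transcription factor, had 12.8, 15.4 and 17.6 CPM in E18.5 mutants (lowest, median, highest), against 22.9, 20.5, 26.6 and 24.8 CPM in E18.5 controls. It had 11.02, 15.3, 17.6, 15.8 and 14.3 CPM in E13.5 mutants, against 21.5, 24.98, 21.1, 24.2 and 23.8 CPM in E13.5 controls. Mutants were below controls without overlap at both stages. Its fold change on the log2 scale was -0.65 (SE 0.11, adjusted p = 0.00649) at E18.5 and -0.64 (SE 0.11, adjusted p = 0.00645) at E13.5, and the stage difference -0.01 (SE 0.16). Gm1821, a transcribed processed pseudogene, had 0.584, 0.914 and 1.48 CPM in E18.5 mutants (lowest, median, highest), against 27.8, 28.7, 31.6 and 25.7 CPM in E18.5 controls. It had 0.843, 0.915, 0.943, 0.965 and 0.648 CPM in E13.5 mutants, against 30.3, 33.6, 31.7, 0.686 and 33.8 CPM in E13.5 controls. Replicate 4 of the E13.5 controls had the level of the mutants, and the stage difference was 0.01 (SE 0.84); reads of a processed pseudogene can also come from its parent gene.

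**Figure D5:**
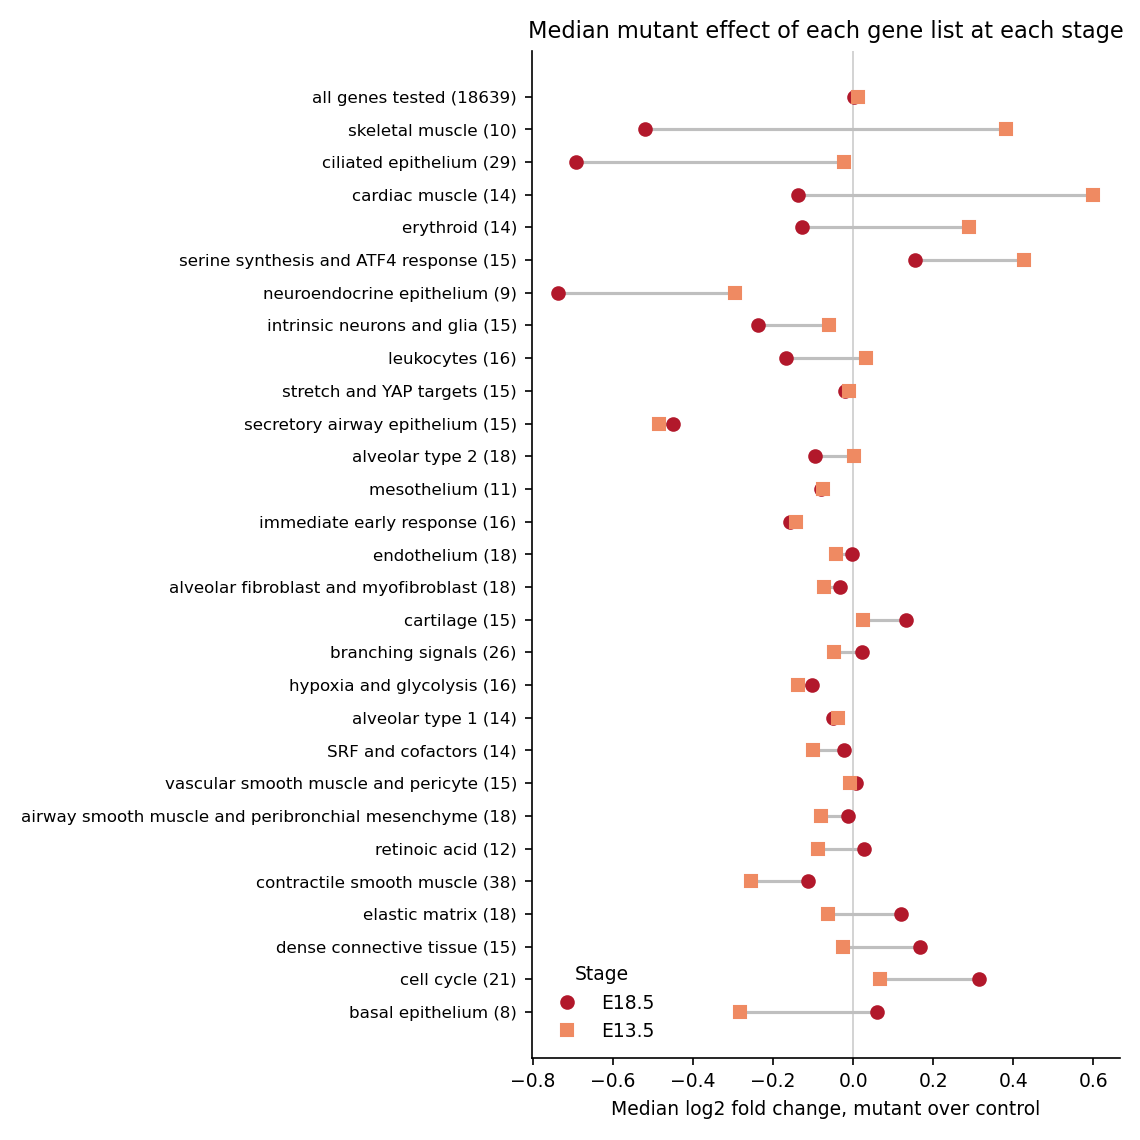
Median log2 fold change of mutants over controls (x axis) at E18.5 (circles) and E13.5 (squares), for all genes tested and for each gene list, with the number of genes tested in brackets; the lists run down the page from the lowest to the highest median stage difference. The ciliated list lies at -0.69 at E18.5 and -0.02 at E13.5, the contractile list at -0.11 and -0.26.

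The plot of list medians holds the remaining lists. The median stage difference was -0.05 for alveolar type 2 genes (18 tested), 0.04 for alveolar fibroblasts (18 tested) and 0.05 for branching signals (26 tested). At E18.5 edgeR called 1 alveolar type 2 gene lower (0.574% of all genes) and 2 alveolar fibroblast genes higher (0.129%). In the stage difference edgeR, DESeq2 and limma called 0 members of these lists. At an unadjusted p under 0.05, 0, 2 and 1 members of these lists were higher (3.02% of all genes) and 0 lower (2.83%). Among their abundant genes, the stage difference was -0.03 (SE 0.39) for Sftpc and 0.12 (SE 0.17) for Sftpb, both of surfactant, 0.11 (SE 0.12) for Npnt, a matrix ligand of integrin, and -0.20 (SE 0.13) for Limch1, an actomyosin regulator. It was 0.05 (SE 0.13) for Fgfr2, the epithelial receptor of FGF10, and -0.09 (SE 0.13) for Ptch1, the hedgehog receptor.

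Further from 0 was the basal epithelium list, at 0.33 (8 of 9 tested), the highest median stage difference of the lists, which kept its sign in 29 of 29 alternatives. Its median log2 fold change was 0.06 at E18.5 and -0.28 at E13.5. The mean level as log2(CPM + 1) was 3.001 ± 0.0714 in E18.5 mutants and 3.02 ± 0.0572 in E18.5 controls, with overlap, and 2.16 ± 0.0683 in E13.5 mutants and 2.39 ± 0.0506 in E13.5 controls, without (SD, n = 6, 4, 5 and 5). Of its tested genes 3 averaged under 1 CPM at E13.5, and edgeR, DESeq2 and limma called 0 in the stage difference, with 0 at an unadjusted p under 0.05. Trp63, the transcription factor that marks basal cells, averaged 0.636 ± 0.615 CPM in E18.5 mutants and 0.508 ± 0.334 CPM in E18.5 controls, and 0.774 ± 0.261 CPM in E13.5 mutants and 1.33 ± 0.358 CPM in E13.5 controls (SD, n = 6, 4, 5 and 5), with a stage difference of 1.11 (SE 0.90, adjusted p = 0.937).

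Lists of fibrous matrix genes had positive medians too: 0.21 for dense connective tissue (15 of 16 tested) and 0.21 for elastic matrix (18 of 18 tested). At an unadjusted p under 0.05, 2 and 4 of their genes were higher (3.02% of all genes) and 0 and 1 lower (2.83%), and edgeR, DESeq2 and limma called 0. The dense connective tissue level was 7.08 ± 0.0348 in E18.5 mutants and 6.93 ± 0.0508 in E18.5 controls, without overlap, and 6.81 ± 0.0986 in E13.5 mutants and 6.88 ± 0.144 in E13.5 controls, with overlap (SD, n = 6, 4, 5 and 5). Col1a1, a chain of type I collagen, had a stage difference of 0.43 (SE 0.16, adjusted p = 0.665). Leukocyte genes had a median of -0.13 (16 of 19 tested), and neuroendocrine genes -0.23 (9 of 11, of which 7 were under 1 CPM at E13.5), whose sign changed in 2 of 29 alternatives. The leukocyte level was 3.51 ± 0.144 in E18.5 mutants and 3.74 ± 0.0659 in E18.5 controls, and the neuroendocrine level 0.57 ± 0.116 in E18.5 mutants and 0.86 ± 0.0769 in E18.5 controls (SD, n = 6 and 4); neither overlapped at E18.5, and both did at E13.5. By edgeR, DESeq2 and limma 0 members of either list passed the stage difference, with 2 leukocyte and 0 neuroendocrine genes lower at an unadjusted p under 0.05 (2.83% of all genes). Ptprc, the leukocyte common antigen, had a stage difference of -0.60 (SE 0.21, adjusted p = 0.631). The other 9 lists had medians of -0.18 to 0.13, and edgeR, DESeq2 and limma called 0 of their genes in the stage difference. At an unadjusted p under 0.05, 0 to 1 were higher and 0 to 2 lower in each list. At E18.5 edgeR called 1 cartilage gene higher (0.129% of all genes). It called 1 stretch and YAP target and 1 retinoic acid gene lower at that stage (0.574%).

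Markers of tissues that could be carried with the lung also had median stage differences below 0. The median stage difference was -0.55 for cardiac muscle (14 of 17 tested), -0.79 for skeletal muscle (10 of 14) and -0.52 for erythroid cells (14 of 14). In that order, the median log2 fold changes were -0.14, -0.52 and -0.13 at E18.5. At E13.5 they were 0.60, 0.38 and 0.29. Of the tested genes 5, 6 and 2 averaged under 1 CPM in both E13.5 groups. The summed cardiac level at E13.5, given below, nonetheless had a lower median in mutants. By edgeR, DESeq2 and limma 0 of their members passed; at an unadjusted p under 0.05, 3 cardiac, 2 skeletal and 2 erythroid genes were lower (2.83% of all genes) and 1 cardiac gene was higher (3.02%). The cardiac list summed to 417 to 843 CPM (median 594) in E18.5 mutants and 478 to 859 CPM (median 622) in E18.5 controls, and to 30.4 to 74.9 CPM (median 52.7) in E13.5 mutants and 48.6 to 73.6 CPM (median 62.4) in E13.5 controls. The skeletal list summed to 20.5 to 51.9 CPM (median 32.1) in E18.5 mutants and 25.1 to 65.9 CPM (median 39.2) in E18.5 controls, and to 12.5 to 20.7 CPM (median 16.9) in E13.5 mutants and 10.6 to 16.8 CPM (median 14.7) in E13.5 controls. The cardiac genes Myl2, Nppa and Nppb and the skeletal genes Myh1, Myog, Myod1 and Cacna1s had too few counts to be tested. The part of these tissues in the results was not tested.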

How the data were processed

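Per the labels' protocols, each lung gave 1 library, prepared with TruSeq RNA V2 reagents and read as single 75-base reads; such libraries do not mark strand. The deposited values are raw read counts per gene: reads were aligned with STAR to GRCm38, per the submitters' processing notes, and counted by the authors with featureCounts 1.6.2 at its default, unstranded setting with GENCODE annotation vM17, per the file headers. The E18.5 and E13.5 lung count tables, 53715 genes each, were joined by gene ID; 53620 IDs had a symbol. The members and gene lists were chosen with earlier results of these data known.

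One model was fitted to the 20 libraries with edgeR 4.0.16 (quasi-likelihood, robust, trimmed mean of M-values normalization, R 4.3.3), keeping genes that passed filterByExpr (minimum count 10), with 16 residual degrees of freedom. The contrasts were the E18.5 effect, the E13.5 effect and their difference. Named genes were Myocd; those past the stage difference at 5 CPM or more in a group, leaving out predicted models and pseudogenes; the most abundant or called members of 9 lists; and the 6 strongest at each stage that did not pass the stage difference. Genes outside this rule (the ties at adjusted p = 0.0756, Ccdc150, Tex9, Gm1821, Mycl and single list members) were chosen after their values were seen. Alternatives were other size factors and filters, DESeq2 1.42.0, limma 3.58.1 with voom weights, a replicate block, the ribosomal RNA share as a covariate, separate fits of each stage, and leaving out each library.

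Deviations of same-numbered mutants and controls correlated at 0.307, 0.154, 0.487 and 0.202 at E18.5, and at -0.375 to -0.132 at E13.5. The positive values at E18.5 were the reason for trying a replicate block there. Blocks were used in the alternatives only. The main fit did not pair libraries, so its p-values leave out any pairing at E18.5. No 2 libraries of a group agreed within counting noise (lowest chi-square per degree of freedom 3.81). Counts were also simulated for 18315 genes, of which 67, 67 and 66 were changed 1.5, 2 and 4 times in E18.5 mutants alone. Libraries were drawn independently, without pairing. The stage difference test found 23.9%, 61.2% and 77.3% of the changed genes, in that order, with 5 false among 113 calls. These shares describe the simulated settings and are not the sensitivity of the test in these data.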

Additional observations from a re-analysis of the deposited data

Results flagged for a closer look

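The mutant effect differed between the stages by the test of the stage difference itself for 5 genes: the log2 stage difference was 1.26 for Lgr6, 1.11 for Acta2, -1.27 for Mns1, -1.47 for Nupr1 and -1.60 for Ccdc150.

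Single libraries stood apart from the rest of their group by Dixon's 95% criterion in 13 of 136 groups, those of 34 genes; chance alone gives about 1 in 20. E13.5 mutant replicate 5 was the highest of its group for Myh11 at 94.4 CPM, Cnn1 at 14.3 CPM and Chac1 at 28.6 CPM. Other E13.5 mutants that stood apart were replicate 1 for Tubb4b at 322 CPM and Fam216b at 0.0602 CPM, and replicate 2 for Sftpb at 9.02 CPM. Among E13.5 controls these were replicate 2 for Lgr6 at 21.4 CPM and Cfap43 at 47.99 CPM, replicate 3 for Acta2 at 279.6 CPM and replicate 4 for Fam216b at 0.0381 CPM. At E18.5, mutant replicate 3 stood apart for Acta2 at 96.4 CPM, control replicate 3 for Scgb1a1 at 619.7 CPM and control replicate 1 for Scgb3a2 at 645 CPM.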

How the results depend on the processing

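DESeq2 called 41 genes in the stage difference, 355 at E18.5 and 83 at E13.5, with 21 early changes that faded and 19 late changes; limma called 21, 255, 128, 12 and 10, in the same order. With the ribosomal RNA share as a covariate these were 1 in the stage difference, 14 at E18.5, 1 faded and 0 late (12 of the E18.5 calls had a stage difference of the same sign at an unadjusted p under 0.05). With a replicate block at E18.5, chosen after seeing the data, the stage difference passed for 6 genes, Mns1, Nupr1 and Ccdc150 among them, and late changes numbered 4. With the replicate block at both stages, which leaves 7 residual degrees of freedom, edgeR called 1 gene in the stage difference, 5 at E18.5, 1 faded and 0 late (4 by the unadjusted standard above). With stage effects from each stage alone, 1 late change was counted. Leaving out 1 library gave 3 to 19 genes in the stage difference, 20 to 302 at E18.5, 24 to 56 at E13.5, 3 to 14 faded and 1 to 13 late. The E18.5 count was 203 without E18.5 mutant replicate 3, 66 without mutant replicate 4, and 20, 302, 71 and 56 without control replicates 1 to 4; the E13.5 count was 24 without E13.5 mutant replicate 2 and 26 without control replicate 4. The cause of these shifts was not tested. No stage difference of a named gene that passed reversed its sign under any of these settings. The median stage difference kept its sign under all 29 alternatives for the contractile, ciliated, ATF4 and cell cycle lists. Depth limits the late genes under 1 CPM at E13.5.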
